A study of Mus musculus with 11 samples.

Results

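Gastric corpus mucosa from mice of the genotype GIF/ATP4B-DTR (3 samples, called the combined line) was compared with that of wild-type mice (genotype WT, 2 controls) by bulk sequencing of mRNA. These 5 samples are the ones with either genotype label among the 11 of the series. The other 6 samples, 3 of the genotype ATP4B-DTR and 3 of the genotype GIF-DTR, are the single lines, and they are used here to show where the combined line lay beyond both. DTR stands for the diphtheria toxin receptor, which makes a mouse cell that carries it sensitive to diphtheria toxin. The series' design text describes mouse models made for selective loss of chief and parietal cells. The promoters of the alleles, the dose of toxin, when tissue was collected, the age and sex of the animals, the number of animals in a sample and any treatment of the controls are not given in the sources used here. Of 34866 gene identifiers, 14889 passed the filter on low counts and were tested, and 12415 had no count in any sample.

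Parietal cells of the corpus gland secrete acid through the proton pump, made of the subunits Atp4a and Atp4b, and run on dense mitochondria. Chief cells at the gland base secrete pepsinogen C (Pgc) and, in mice, intrinsic factor (Gif, now called Cblif). Mucous neck cells, which lie between them and make the mucin Muc6, are known as the precursors of chief cells. When parietal or chief cells are lost, the corpus is known to turn on a repair program called spasmolytic polypeptide-expressing metaplasia (SPEM), together with proliferation of gland progenitors.

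Both controls stood apart from each other and from all 3 lines, and this touches every result below. Sample totals were 20.7 to 27.9 M counts. The mean level of a list of fibroblast and collagen genes was 2.14 in control 1 and 5.02 in control 2 on the log2 scale, and the lists for B and plasma cells, endothelial cells, smooth muscle and MHC class II were also higher in control 2, so each control is given separately. Features that share reads also set the controls apart. There were 8 features with at least 1 CPM in both controls and 0 counts in all 9 line samples, and all 8 were pseudogenes. No feature had that pattern for any of the 3 lines. Gm28438, a copy of mitochondrial sequence at chr1:24612775-24613119, stood at 963 and 707 CPM in controls 1 and 2 and at 0 in the 9 line samples. A difference in how shared reads were counted in the controls and the genotype cannot be told apart where a gene shares reads. The log2 fold change against control also fell with transcript length across genes (Spearman's rho -0.271 over 14851 genes, which are not independent replicates), with a median of 0.41 in genes of up to 1322 bases and -0.43 in those from 6779 bases. Y-linked genes were expressed in both controls and all 3 combined samples, in ATP4B-DTR sample 1 and in 0 of the GIF-DTR samples.

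The markers of the ablated cells were low in the combined line. Atp4b (ENSMUSG00000031449.10, chr8:13386205-13396825 in mm10) stood at 4786 and 4365 CPM (counts scaled to library size) in controls 1 and 2, at 475, 641 and 683 in the ATP4B-DTR samples, at 3470.4, 2136 and 2784 in the GIF-DTR samples, and at 158, 468 and 243 in the combined samples. All 3 combined samples were below every other sample, and the mean went from 4575 ± 298 (SD, n = 2) to 289.8 ± 160 (SD, n = 3). The edgeR quasi-likelihood test gave a log2 fold change against control of -3.98 ± 0.40 (SE), with an adjusted p of 7.91e-05. Gif (ENSMUSG00000024682.3, chr19:11747554-11763447) stood at 702 and 2303 CPM in the controls, at 824, 332 and 755 in the ATP4B-DTR samples, at 65.5, 178 and 196 in the GIF-DTR samples, and at 218, 83.7 and 72.3 in the combined samples. The combined samples were below both controls and overlapped the GIF-DTR samples, and the 2 controls differed from each other by more than did the combined samples. Gif fell by 3.59 ± 0.73 on the log2 scale (adjusted p = 0.00565, edgeR).

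Muc6 (ENSMUSG00000048191.15, chr7:141633456-141655319), the mucin of mucous neck cells, marks a cell type that neither allele is named for. It stood at 384 and 333 CPM in the controls, at 28, 90.6 and 77 in the ATP4B-DTR samples, at 39.4, 19.7 and 27.1 in the GIF-DTR samples, and at 5.57, 8.76 and 15.2 in the combined samples. The combined samples were lowest of all 11, and the fall against control was 5.18 ± 0.57 on the log2 scale (adjusted p = 0.000266, edgeR). Against the nearer single line, GIF-DTR, the difference was -1.54 in log2, with an unadjusted p of 0.0113 for lying beyond both single lines and an adjusted p of 0.626 (edgeR).

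**Figure D1:**
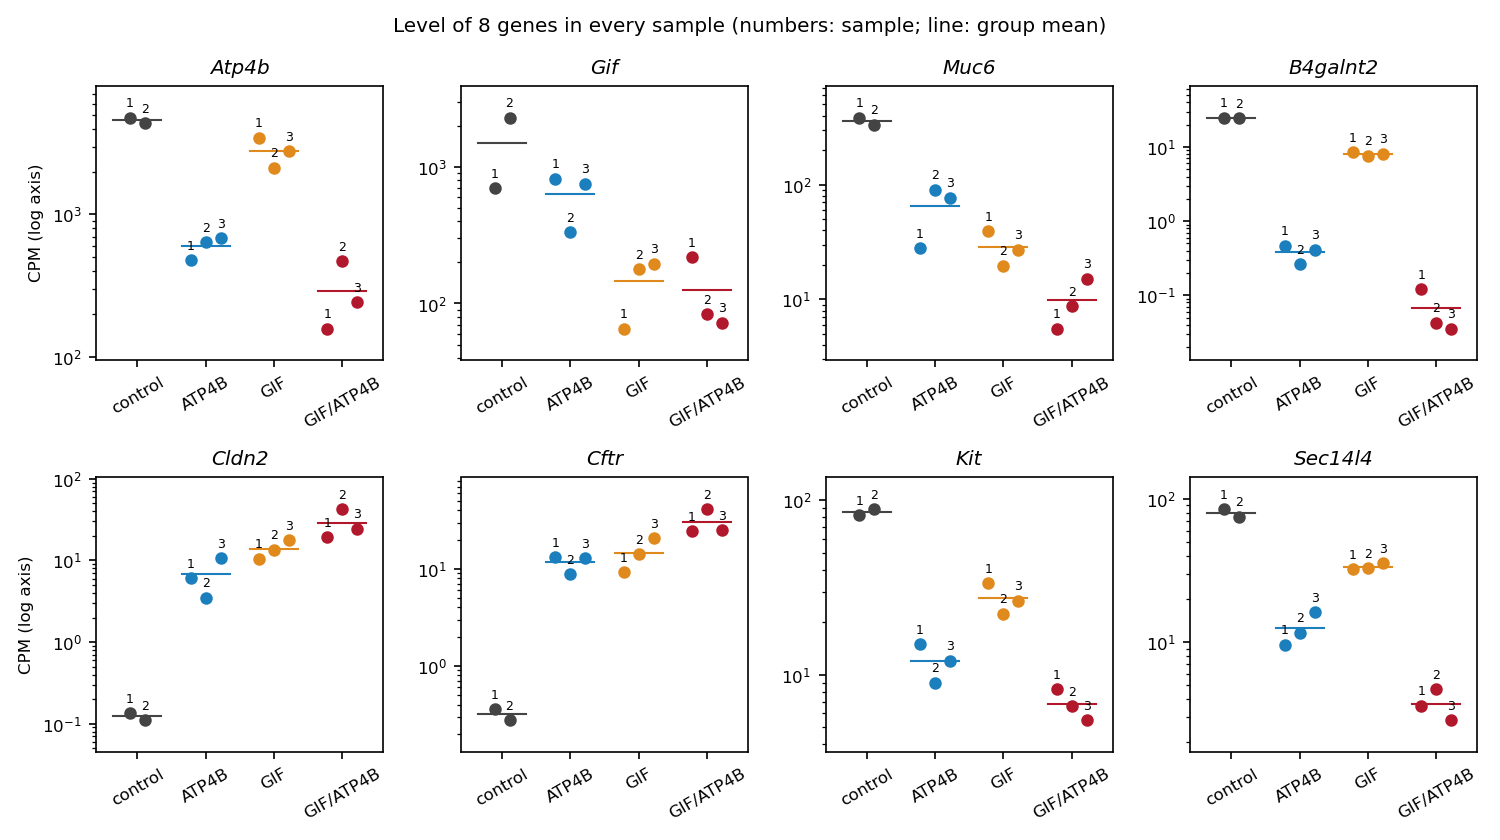
Level of 8 genes in every sample, in CPM on a log axis, with samples numbered within each genotype and a line at the group mean. Atp4b, Muc6, B4galnt2, Kit and Sec14l4 are lowest in the 3 combined samples, Cldn2 and Cftr are highest there, and Gif overlaps between GIF-DTR and the combined line.

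Across all genes, 2713 were called higher in the combined line than in control (18.2% of those tested) and 2292 were called lower (15.4%), where called means an adjusted p under 0.05 in edgeR's quasi-likelihood test. Of these, 1215 were higher and 1171 lower by at least 2-fold, and 4966 of the 5005 had no overlap between the combined and the control samples. The median log2 fold change over all genes was -0.04. The counts of a gene list against both controls can be read against these shares. Against control 2 alone 2418 genes were called higher and 1981 lower, and against control 1 alone 1377 higher and 1497 lower, so list counts against 1 control are to be read against these smaller totals. Of the 2874 calls against control 1 alone, 2754 were among the 5005. The p-values measure the spread between these samples, which the labels do not say came from separate animals.

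**Figure D2:**
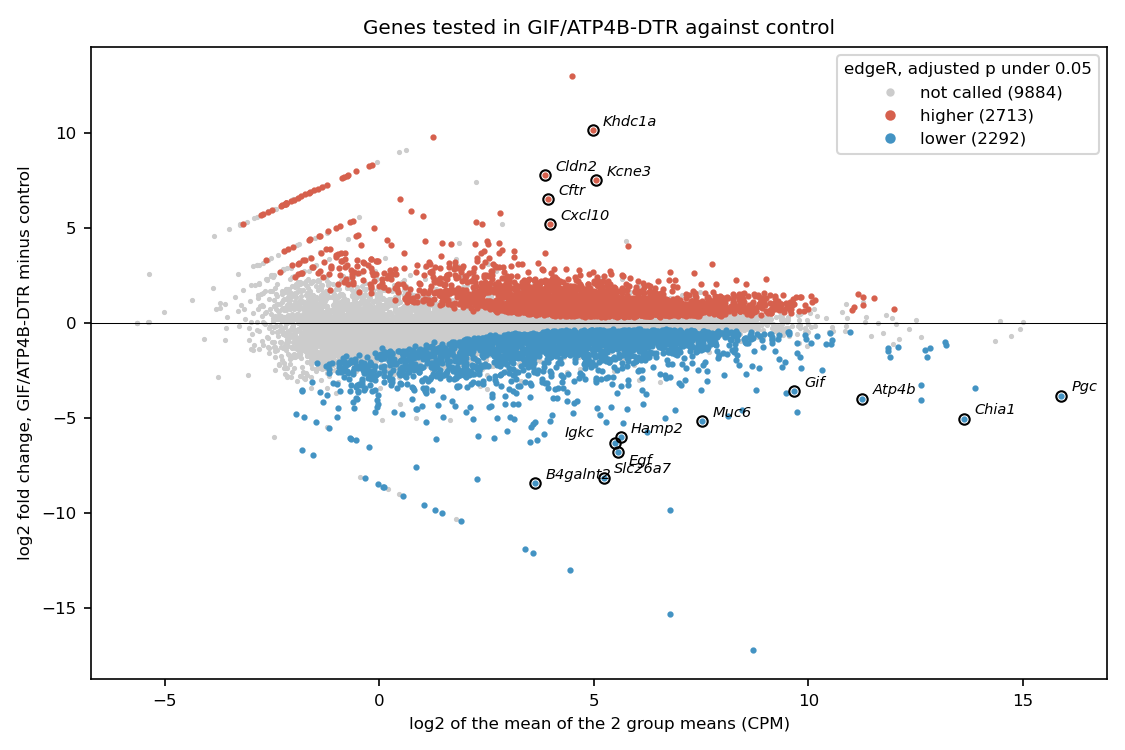
Log2 fold change of the combined line over control for each of the 14889 genes tested, against the log2 of the mean of the 2 group means in CPM, with called genes in colour. Named genes include the highest and lowest changes that the naming rule gave, such as Khdc1a, Cldn2, B4galnt2 and Slc26a7.

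Parietal cell genes fell as a group. Of 20 tested members, 15 were called lower, 1 was called higher and 4 were not called, with a median log2 fold change of -1.90, against -1.23 in ATP4B-DTR and -0.84 in GIF-DTR. Lower calls numbered 13 of 20 against control 1 alone and 14 against control 2 alone. In bulk tissue, fewer cells of a type and less RNA per cell cannot be told apart. Atp4a, the catalytic pump subunit, stood at 11690.4 and 11129 CPM in the controls, at 2302, 2188 and 3352 in ATP4B-DTR, at 5555, 4788 and 5337 in GIF-DTR, and at 710.1, 1719 and 1158 in the combined line. Its combined samples were below every other sample (log2 fold change -3.25 ± 0.33, adjusted p = 7.47e-05, edgeR). The largest fall in the list was that of Slc26a7, an anion transporter of the parietal basolateral membrane, which stood at 78.3 and 71.4 CPM in the controls, at 0.233 to 0.911 in ATP4B-DTR, at 17.9 to 31.4 in GIF-DTR and at 0, 0.299 and 0.463 in the combined line (-8.14 ± 0.62). Hamp2, a hepcidin gene, followed the same order, with 114 and 79.2 CPM in the controls, 1.57 to 2.05 in ATP4B-DTR, 41.2 to 77.5 in GIF-DTR and 0.766, 2.01 and 1.78 in the combined line (-5.99 ± 0.39). For both genes the combined samples overlapped ATP4B-DTR and lay below GIF-DTR.

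Other parts of the acid-secreting apparatus fell by less. Slc4a2, the basolateral chloride-bicarbonate exchanger, stood at 836 and 702 CPM in controls 1 and 2 and at 118, 173 and 163 in the combined line, below all 6 single-line samples (226 to 468), with a log2 fold change of -2.35 ± 0.18. Hrh2, the histamine receptor that drives acid secretion, fell by 2.46 ± 0.28, and Clic6, an intracellular chloride channel protein, by 2.36 ± 0.27. The estrogen-related receptors moved by different amounts: Esrrb fell by 5.02 ± 0.47 and Esrrg, which is known to drive parietal cell metabolic genes, by 1.42 ± 0.21. Kcnq1, the potassium channel subunit that recycles potassium to the pump, fell by 1.11 ± 0.26. Its partner Kcne2 fell by 1.22 ± 0.33, a call that was lost without either control and without combined sample 3 (adjusted p = 0.0692, 0.0544 and 0.0518, edgeR). Ppargc1a, a coactivator of mitochondrial genes, was the member called higher (0.98 ± 0.31), and that call was lost without either control and without combined samples 2 and 3 (adjusted p = 0.118, 0.13, 0.0956 and 0.0847, edgeR). Car2, a carbonic anhydrase that parietal cells share with surface cells, was not called, at 2627 and 2015 CPM in controls 1 and 2 and 3403, 2513 and 2747 in the combined line. Over the 16 members whose counts were whole numbers in most samples, 11 were called lower and 1 higher, with a median of -1.5.

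The chief cell list fell further, with a median of -3.43 over 9 tested members, against -1.24 in ATP4B-DTR and -2.54 in GIF-DTR. Of the 9, 5 were called lower and 0 higher. Against control 1 alone 3 were called lower, and against control 2 alone 5. The controls themselves differed here: the mean level of the list was 8.23 in control 1 and 9.33 in control 2 on the log2 scale. Chia1, an acidic chitinase of mouse chief cells, stood at 14258 and 35132 CPM in the controls, at 11715, 2672 and 6014 in ATP4B-DTR, at 856, 299 and 318 in GIF-DTR, and at 320, 775 and 1167 in the combined line. Its combined samples lay below all control and ATP4B-DTR samples and overlapped GIF-DTR (log2 fold change -5.03 ± 0.81, adjusted p = 0.00136, edgeR). Pgc stood at 70812 and 154891 CPM in controls 1 and 2 and at 2279, 10566 and 11167 in the combined line, within the 4619.5 to 21639.8 of GIF-DTR at its upper 2 values and below them at the lowest.

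Pgc fell by 3.82 ± 0.87, a call that was lost without control 2 (adjusted p = 0.057, edgeR). Clps, pancreatic colipase, stood at 22201 and 33075 CPM in controls 1 and 2 and at 559, 2903 and 4237 in the combined line (-3.43 ± 0.97, with adjusted p of 0.0981 without control 2 and 0.0686 without combined sample 2 in edgeR). The member farthest beyond both single lines was Pdia2, a protein disulfide isomerase, at 545 and 802 CPM in the controls, 146, 90 and 176 in ATP4B-DTR, 172, 107 and 135 in GIF-DTR and 13, 33.9 and 36.7 in the combined line. The combined samples of Pdia2 were all below the other 8 (log2 fold change against control -4.59 ± 0.45, adjusted p = 0.000123, edgeR). Bhlha15 (Mist1), the transcription factor that builds the secretory apparatus of chief cells, was not called, at 10.7 and 31.7 CPM in controls 1 and 2 and 3.79, 2.27 and 4.42 in the combined line (-2.59 ± 1.02). The pepsinogen Pga5 was not called either, at 112 and 121 CPM in controls 1 and 2 and 2.46, 27.2 and 14.2 in the combined line (-3.00 ± 1.14).

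Mucous neck genes did not move together. Of 8 tested members 3 were called lower and 1 higher, with a median of -0.35. Besides Muc6, the glycosyltransferase Galnt6 fell, from 162 and 103 CPM in the controls to 35.5, 45.4 and 50.2 in the combined line (-1.60 ± 0.33), with 1 of the combined samples inside the 48.6 to 111 of the single lines and the others below it. B4galnt3, another glycosyltransferase, fell by 1.32 ± 0.42, and its log2 fold change was -0.85 without control 1. Its call was lost without control 1 and without each combined sample (adjusted p = 0.0856, 0.113 and 0.0621 without combined samples 1, 2 and 3, edgeR). The trefoil peptide Tff2, a neck cell and SPEM product, was not called: 1138 and 723 CPM in the controls against 863, 1072 and 1250 in the combined line. Gkn3, another neck cell gene, was not called, at 10.3 and 27.6 CPM in the controls, 183, 113 and 151 in ATP4B-DTR, and 124, 36.6 and 23.8 in the combined line. Agr2, a disulfide isomerase of mucous cells, was also not called (0.39 ± 0.28).

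SPEM and metaplasia genes rose in 10 of 18 cases, with 0 lower, and a median of 1.84 against 1.34 in ATP4B-DTR and 1.28 in GIF-DTR. Against control 1 alone 7 were called higher and against control 2 alone 9. The list mean was 4.31 and 4.13 in the controls, 5.85 to 6.39 in ATP4B-DTR, 5.50 to 5.85 in GIF-DTR and 6.41, 6.26 and 6.11 in the combined line on the log2 scale, so the combined samples overlapped ATP4B-DTR and lay above GIF-DTR. Cldn2, a pore-forming claudin of leaky epithelia (chrX:139800828-139811386), had 3 and 2 counts in the controls and 474, 994 and 685 in the combined line. That is 0.135 and 0.111 CPM in the controls, 6.1, 3.51 and 10.7 in ATP4B-DTR, 10.5, 13.5 and 17.6 in GIF-DTR and 19.1, 42.5 and 24.4 in the combined line, above every other sample. The ratio of the combined line to control was 231, with a 95% interval of 99.0 to 712 from the counting error of the 5 control counts (adjusted p = 8.75e-05, edgeR).

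Cftr, the chloride channel mutated in cystic fibrosis (chr6:18170687-18322768), stood at 0.359 and 0.277 CPM in the controls, at 13.2, 8.78 and 12.9 in ATP4B-DTR, at 9.18, 14.1 and 20.8 in GIF-DTR, and at 24.3, 41.2 and 25 in the combined line. It too was above every other sample there (log2 fold change 6.53 ± 0.51, adjusted p = 2.17e-05, edgeR). Other members rose without passing the single lines. Dmbt1, a secreted scavenger glycoprotein, stood at 50 and 38 CPM in the controls, 251 to 751 in the single lines and 570.5, 206 and 375 in the combined line (3.13 ± 0.41). Aqp5, a water channel, rose by 3.18 ± 0.35, and Gpx2, an epithelial glutathione peroxidase, by 2.06 ± 0.36. Cd44, the adhesion receptor that marks SPEM glands, rose by 1.75 ± 0.35, from 6.69 and 12.5 CPM in the controls to 27.1, 39.2 and 29.8. Wfdc2, a secreted protease inhibitor, rose by 2.63 ± 0.56, a call that was lost without control 2 (adjusted p = 0.0625, edgeR). Clu (clusterin, 0.99 ± 0.52) and the progenitor factor Sox9 (0.52 ± 0.32), which are often used as SPEM markers, were not called.

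Intestinal genes were mostly not called: 4 of 21 were higher and 0 lower, with 1 higher against control 1 alone and 6 against control 2 alone. Fabp2, an enterocyte fatty acid binding protein, rose from 14.5 and 6.87 CPM in the controls to 56.7, 40.5 and 26.9 (1.95 ± 0.41), overlapping the 14.5 to 32.2 of the single lines. Reg3g, an antimicrobial lectin, stood at 1.39 and 0.333 CPM in controls 1 and 2 and 11, 7.44 and 7.77 in the combined line (adjusted p = 0.0867 without control 2, edgeR). The most abundant products of surface pit cells were not called. Gkn1 (gastrokine 1) stood at 42265 and 27361 CPM in the controls against 25093, 26828 and 31589 in the combined line, overlapping them. Tff1, the trefoil peptide of pit cells, stood at 26412 and 16549 CPM against 24948, 19574 and 25949, between both controls. The pit mucin Muc5ac was called lower, at 13836 and 7818 CPM in the controls, 1624 to 6779 in the single lines and 2507, 2834 and 4059.7 in the combined line (-1.79 ± 0.47, with an adjusted p of 0.1 without control 1 in edgeR). Gsta1, a glutathione transferase in the same list, rose by 1.33 ± 0.26 to levels above every control.

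Cell division genes rose throughout. All 30 members of the mitosis list were called higher (median 1.80, against 1.61 in ATP4B-DTR and 1.47 in GIF-DTR), as were all 30 of the DNA replication list (median 1.87, against 1.5 and 1.65). Against control 1 alone 28 and 27 of them were called, and against control 2 alone 30 and 29. In both lists together 1 member, the spindle checkpoint kinase Ttk, had its combined samples above every other sample. Ccnb2, cyclin B2, stood at 17 and 9.87 CPM in the controls, at 65.2, 44.7 and 42.3 in ATP4B-DTR, at 35.7, 37.6 and 45.6 in GIF-DTR and at 50.8, 58.4 and 52.7 in the combined line. It was higher in all 9 line samples than in either control (combined line 2.00 ± 0.25, adjusted p = 0.000257, edgeR). Cdk1, the mitotic kinase that cyclin B activates, stood at 22.4 and 15.2 CPM in controls 1 and 2 and at 57, 82.5 and 68.4 in the combined line (1.88 ± 0.27). Mcm5, a subunit of the replicative helicase, went from 14.2 and 11.9 CPM to 43.5, 61.3 and 63.3 (2.10 ± 0.24). Mki67, the proliferation antigen, rose by 1.31 ± 0.25.

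The largest mitotic changes were those of Ncapg, a condensin subunit (2.41 ± 0.30), and of the kinetochore proteins Ndc80 (2.29 ± 0.31) and Nuf2 (2.21 ± 0.32), with Birc5 (survivin, 2.21 ± 0.25). In the replication list Orc1 of the origin recognition complex rose by 2.95 ± 0.46 and the ribonucleotide reductase subunit Rrm2 by 2.41 ± 0.27. Uhrf1, which maintains DNA methylation, rose by 2.23 ± 0.25, Rfc4 of the clamp loader by 2.23 ± 0.30, and Pcna, the sliding clamp, by 1.01 ± 0.15. The whole-count members, 18 of the mitosis list and 24 of the replication list, were all called higher, with medians of 1.90 and 1.85.

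Promoters of these genes, which moved together, hold recurring motifs. RefSeq promoter sequence was matched by symbol for 25 of the 30 genes of each list, and the 250 bases before the start were searched on both strands for 4 motifs: CCAAT, which NF-Y binds, TTTGAA, the core of the cell cycle homology element, and TTTCGCGC and TTTGGCGC, which E2F factors bind. CCAAT was in 20 of the 25 mitosis promoters (80%) and 16 of the 25 replication promoters (64%), in 2 of 13 parietal promoters (15.4%), and in 36.1% of the 11282 promoters of tested genes. TTTGAA was in 8 of the 25 mitosis promoters (32%) and 3 of the replication promoters (12%), against 10.9% of tested genes. TTTCGCGC was in 1 mitosis and 4 replication promoters (4% and 16%) against 0.443%, and TTTGGCGC was in 0 and 3 (0% and 12%) against 0.753%. A match describes these letters and is not a site. The 3 windows below were chosen because they show the motifs; they end before the annotated gene, are in GRCm38.p6, run 5′ to 3′ on the gene's strand, and have the matches on either strand in capitals. ATTGG is CCAAT on the other strand, and in Mcm5 the motif TTTCGCGC overlaps the reverse of TTTGGCGC. Ccnb2 is at chr9:70421555-70421754 on the minus strand, Cdk1 at chr10:69352939-69353112 on the minus strand and Mcm5 at chr8:75109309-75109508 on the plus strand.
Ccnb2: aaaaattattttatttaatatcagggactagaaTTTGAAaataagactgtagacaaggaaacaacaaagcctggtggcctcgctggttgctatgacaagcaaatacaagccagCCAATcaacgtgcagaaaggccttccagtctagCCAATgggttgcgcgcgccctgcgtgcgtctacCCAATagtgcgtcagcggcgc
Cdk1: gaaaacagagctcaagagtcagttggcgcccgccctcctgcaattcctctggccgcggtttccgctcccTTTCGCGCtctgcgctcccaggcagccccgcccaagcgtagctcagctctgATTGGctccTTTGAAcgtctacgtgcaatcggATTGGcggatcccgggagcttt
Mcm5: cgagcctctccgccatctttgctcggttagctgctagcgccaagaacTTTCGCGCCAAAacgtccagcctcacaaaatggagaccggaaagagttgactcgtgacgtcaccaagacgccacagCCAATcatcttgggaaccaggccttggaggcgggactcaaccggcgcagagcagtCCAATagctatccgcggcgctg

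Stem and progenitor genes were called higher in 7 of 15 cases and lower in 0 (median 0.93), falling to 3 against control 1 alone. Stmn1, a microtubule regulator of isthmus progenitors, rose from 40.3 and 35 CPM to 117, 136 and 102 (1.65 ± 0.23). Ascl2, a factor of intestinal stem cells, stood at 0.18 and 0.388 CPM in controls 1 and 2 and at 8.96, 3.8 and 2.96 in the combined line, overlapping the single lines (4.21 ± 0.75). Lgr5, the receptor that marks basal stem cells, was not called, at 1.17 and 4.66 CPM in controls 1 and 2 and 9.36, 6.41 and 3.13 in the combined line. Targets of p53 were divided, with 5 of 18 higher and 3 lower, or 3 higher and 2 lower against control 1 alone. Bax, which permeabilizes mitochondria in apoptosis, stood at 24.7 and 16.4 CPM in the controls, 35 to 47.2 in the single lines and 52.5, 52.8 and 52.3 in the combined line, above every other sample (1.35 ± 0.18). Gdf15, a stress-induced cytokine, also had all 3 combined samples above the rest, at 3.39, 3.55 and 2.92 CPM against 0.494 and 0.277 in the controls (3.06 ± 0.58). Phlda3, an Akt inhibitor, rose by 2.28 ± 0.43. Sesn1 and Trp53inp1, stress proteins that also limit growth, fell by 2.29 ± 0.30 and 1.59 ± 0.25.

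Among 11 EGF family genes, 0 were called higher and 1 lower, or 1 higher and 2 lower against control 2 alone. Egf itself stood at 131 and 55.3 CPM in the controls, 0.834 to 1.58 in ATP4B-DTR, 3.11 to 5.06 in GIF-DTR and 0.0807, 1.07 and 1.28 in the combined line. It was lower in all 9 line samples than in either control, and the combined samples overlapped ATP4B-DTR (-6.82 ± 0.68, adjusted p = 0.000161, edgeR). Areg (amphiregulin) was not called, at 26.4 and 15.6 CPM in the controls against 53.3, 49.6 and 66.3 in the combined line (1.42 ± 0.49, adjusted p = 0.0503, edgeR).

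The 12 highest and 12 lowest named genes of the whole comparison include several that belong to no list above. Khdc1a, an oocyte and early embryo gene, had 2 and 0 counts in the controls and 2690, 1131 and 864 in the combined line, a ratio of 1261 with a 95% counting interval of 349 to 10409. Its combined samples stood at 109, 48.4 and 30.8 CPM and overlapped the 6.96 to 32.4 of ATP4B-DTR, and the call was lost without control 2 (adjusted p = 0.0513, edgeR). Kcne3, the partner of Kcnq1 in secretory epithelia, stood at 0.135 and 0.61 CPM in the controls, 15 to 34.9 in the single lines and 92.8, 60 and 46.3 in the combined line, above every other sample (7.54 ± 0.73, adjusted p = 0.000124, edgeR). Cldn4, a claudin that seals tight junctions, rose by 5.20 ± 0.93. Secreted immune proteins were among the highest too: the lung collectin Sftpd rose by 5.80 ± 1.09, the chemokine Cxcl10 by 5.23 ± 0.90 and the cytokine Lif by 4.19 ± 0.54. Fetub, a protease inhibitor, rose by 5.33 ± 0.37, the pantetheinase Vnn1 by 4.35 ± 0.54, Cyp2d26, a cytochrome P450, by 4.21 ± 0.60, and Clca4a, a chloride channel accessory gene, by 4.16 ± 0.75.

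The lowest named gene was B4galnt2 (chr11:95865943-95914891), the glycosyltransferase that makes the Sda blood group glycan. It had 3, 1 and 1 counts in the combined line, and control exceeded the combined line by a ratio of 377, with a 95% counting interval of 162 to 1162 (adjusted p = 4.13e-07, edgeR). In CPM it stood at 24.9 and 24.6 in the controls, at 0.466, 0.263 and 0.414 in ATP4B-DTR, at 8.56, 7.59 and 8.17 in GIF-DTR and at 0.121, 0.0428 and 0.0356 in the combined line. The groups did not overlap, and the combined samples were lowest. Col4a3, a basement membrane collagen, fell by 5.68 ± 0.67, Dmbx1, a homeobox factor, by 5.97 ± 0.86, Zbtb16 (PLZF) by 6.05 ± 0.88 and Azgp1, a zinc-binding secreted glycoprotein, changed by -5.48 ± 0.52. Try10, a trypsin, stood at 22.3 and 27.8 CPM in controls 1 and 2 and 0, 0.257 and 0.748 in the combined line (-6.16 ± 1.09). Of the 9 tested markers in a pancreas acinar list, 2 were called lower (1 against control 1 alone), among them the trypsin Try4 (-4.84 ± 0.83).

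Genes of energy metabolism fell in part. Of 13 protein-coding genes of the mitochondrial genome, 10 were called lower and 0 higher (median -1.24, against -1.36 in ATP4B-DTR and -0.41 in GIF-DTR), and 7 were called lower against either control alone. mt-Nd4, a complex I subunit, stood at 11338 and 9493 CPM in the controls, 2939 to 5105 in ATP4B-DTR, 6079 to 10782 in GIF-DTR and 3832, 4976 and 3785 in the combined line (-1.31 ± 0.30). mt-Atp8 showed the largest fall (-3.67 ± 0.29), with 1474 and 1175 CPM in controls 1 and 2 and 62.3 to 149 in all 9 line samples. The sum over the 13 genes and 5 nuclear copies of mitochondrial sequence was 140868 and 111833 CPM in controls 1 and 2 and 63244, 82589 and 57505 in the combined line.

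Nuclear genes for oxidative phosphorylation were mostly not called, with 5 of 35 lower and 1 higher (median -0.05). The median was -0.21 against control 1 alone and 0.12 against control 2 alone. Sdha, the catalytic subunit of succinate dehydrogenase, fell by 0.82 ± 0.13, with every combined sample below both controls (498 and 432 CPM), and Cycs, cytochrome c, was called higher (1.04 ± 0.28, with an adjusted p of 0.106 without control 2 in edgeR). In the TCA cycle 8 of 20 were called lower and 0 higher. The median was -0.42 against control 1 alone and -0.19 against control 2 alone. Idh2 fell by 1.07 ± 0.15 and Mdh1 by 0.88 ± 0.18. Pdk4, which restrains pyruvate dehydrogenase when fat is burned, fell by 2.55 ± 0.35, within the range of the single lines. Of 23 fatty acid oxidation genes 10 were lower and 1 higher, with medians of -0.57 against control 1 alone and -0.34 against control 2 alone. Ppara, the transcription factor of that pathway, stood at 7.23 and 5.82 CPM in controls 1 and 2 and 1.69, 1.24 and 1.18 in the combined line, below all 6 single-line samples (-2.25 ± 0.36). With the length trend removed, lower calls numbered 16 of 35 for oxidative phosphorylation, 12 of 20 for the TCA cycle and 15 of 23 for fatty acid oxidation. Cpt1a, the carnitine transferase that commits fatty acids to oxidation, fell by 1.09 ± 0.18, Acadm by 1.15 ± 0.17 and Echs1 by 1.10 ± 0.14.

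Some enzymes of phosphate buffering also fell. Ckb, brain-type creatine kinase, stood at 511 and 509 CPM in the controls, 191 to 262 in ATP4B-DTR, 281 to 407 in GIF-DTR and 66, 179 and 144 in the combined line, below every other sample (-1.97 ± 0.33). The adenylate kinases Ak1 (-1.89 ± 0.32) and Ak4 (-1.28 ± 0.26) were also lowest in the combined line. The list of creatine and energy buffering genes had 3 lower and 1 higher of 9, with a median of -0.31. Its median was 0.01 against control 1 alone and -0.03 against control 2 alone. Glycolysis had 6 lower and 1 higher of 17, with medians of -0.55 against control 1 alone and -0.13 against control 2 alone. Pfkm (muscle-type phosphofructokinase) was down by 1.27 ± 0.18 and Eno1 (enolase) by 0.91 ± 0.17, both with combined samples below every other sample.

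Antioxidant genes of the glutathione system rose, with 12 of 22 called higher and 2 lower (median 0.72, against 0.55 in ATP4B-DTR and 0.19 in GIF-DTR). Against control 1 alone 7 were higher, and against control 2 alone 14. The enzymes that make glutathione rose at each step: Gclc by 1.24 ± 0.22, Gclm by 1.17 ± 0.18 and Gss by 1.58 ± 0.21. Gclc stood at 165 and 118 CPM in the controls, 281 to 348 in ATP4B-DTR, 123 to 184 in GIF-DTR and 393, 282 and 329 in the combined line, so the combined samples lay with ATP4B-DTR and above GIF-DTR. Srxn1 (sulfiredoxin) rose by 1.39 ± 0.22 in the same order, and Gstm1 by 1.39 ± 0.28. Nqo1, a quinone reductase known as a target of the factor Nrf2, rose by 1.35 ± 0.33, a call that was lost without control 2 (adjusted p = 0.085, edgeR). Cat (catalase), the peroxisomal enzyme, went the other way, from 298 and 279.6 CPM in the controls to 48.9, 47.9 and 62.3 in the combined line (-2.45 ± 0.17, adjusted p = 9.38e-06, edgeR).

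Ribosome genes rose. Of 34 cytosolic ribosomal proteins 32 were called higher and 0 lower (median 1.00, against 0.83 in ATP4B-DTR and 0.61 in GIF-DTR), and of 22 ribosome biogenesis genes 18 were higher and 0 lower (median 1.09). Ribosomal protein genes are short and have many pseudogenes, so both limits given above bear on them. With the length trend removed 24 of 34 were called higher (median 0.65), and of the 14 members with whole counts 12 were called (median 0.84). Rps7 stood at 189 and 157 CPM in the controls, 620.2 to 925 in the single lines and 754, 1121 and 721 in the combined line (2.32 ± 0.24). Rpl10a went from 116 and 98.8 CPM to 477, 629.8 and 466, and summed with its pseudogene Rpl10a-ps1 from 310.3 and 261 to 573, 789 and 568. The nucleolar proteins Nop56 (1.90 ± 0.22), Gnl3 (1.73 ± 0.24) and Npm1 (1.54 ± 0.24) rose as well. Nop56 stood at 32.4 and 27.9 CPM in controls 1 and 2 and 89.8, 131 and 117 in the combined line.

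Immune and stromal genes depended on which control was used. The B and plasma cell list, with 6 of 7 called lower, had a median of -2.94 against control 1 alone, where 1 was called, and -6.66 against control 2 alone, where 6 were. Igkc, the kappa light chain, stood at 12.4 and 165 CPM in the controls, 0.307 to 0.652 in ATP4B-DTR, 0.983 to 6.76 in GIF-DTR and 0, 3.38 and 0.0356 in the combined line (-6.33 ± 1.63, with an adjusted p of 0.203 without control 2 in edgeR). Every line sample lay below both controls, and the 2 controls were far apart. The call of Jchain (-5.82 ± 1.55) was lost without control 2 and without combined sample 1 (adjusted p = 0.198 and 0.063, edgeR). That of Igha (-5.74 ± 1.86) was lost without control 2 and without combined samples 1 and 3 (adjusted p = 0.435, 0.103 and 0.105, edgeR).

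Endothelial markers were called lower in 3 of 13 cases, or 0 against control 1 alone and 8 against control 2 alone, with a median of -0.11 against control 1 alone and -2.87 against control 2 alone. Plvap, a protein of fenestrated capillaries, stood at 12.9 and 42.6 CPM in controls 1 and 2 and 1.41, 6.37 and 4.17 in the combined line (-2.80 ± 0.72, adjusted p = 0.149 without control 2, edgeR). For fibroblast and collagen genes the median was 1.41 against control 1 alone and -1.72 against control 2 alone, and for MHC class II genes -0.06 and -2.05. Macrophage genes had medians of 1.42 and -1.02, and the receptor Csf1r stood at 0.988 and 11 CPM in the controls against 1.61, 2.65 and 2.24 in the combined line, between both. Interferon response genes went the other way, at -0.08 against control 1 alone and 2.25 against control 2 alone. The direction of the fibroblast, macrophage and interferon lists thus differed between the controls.

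**Figure D3:**
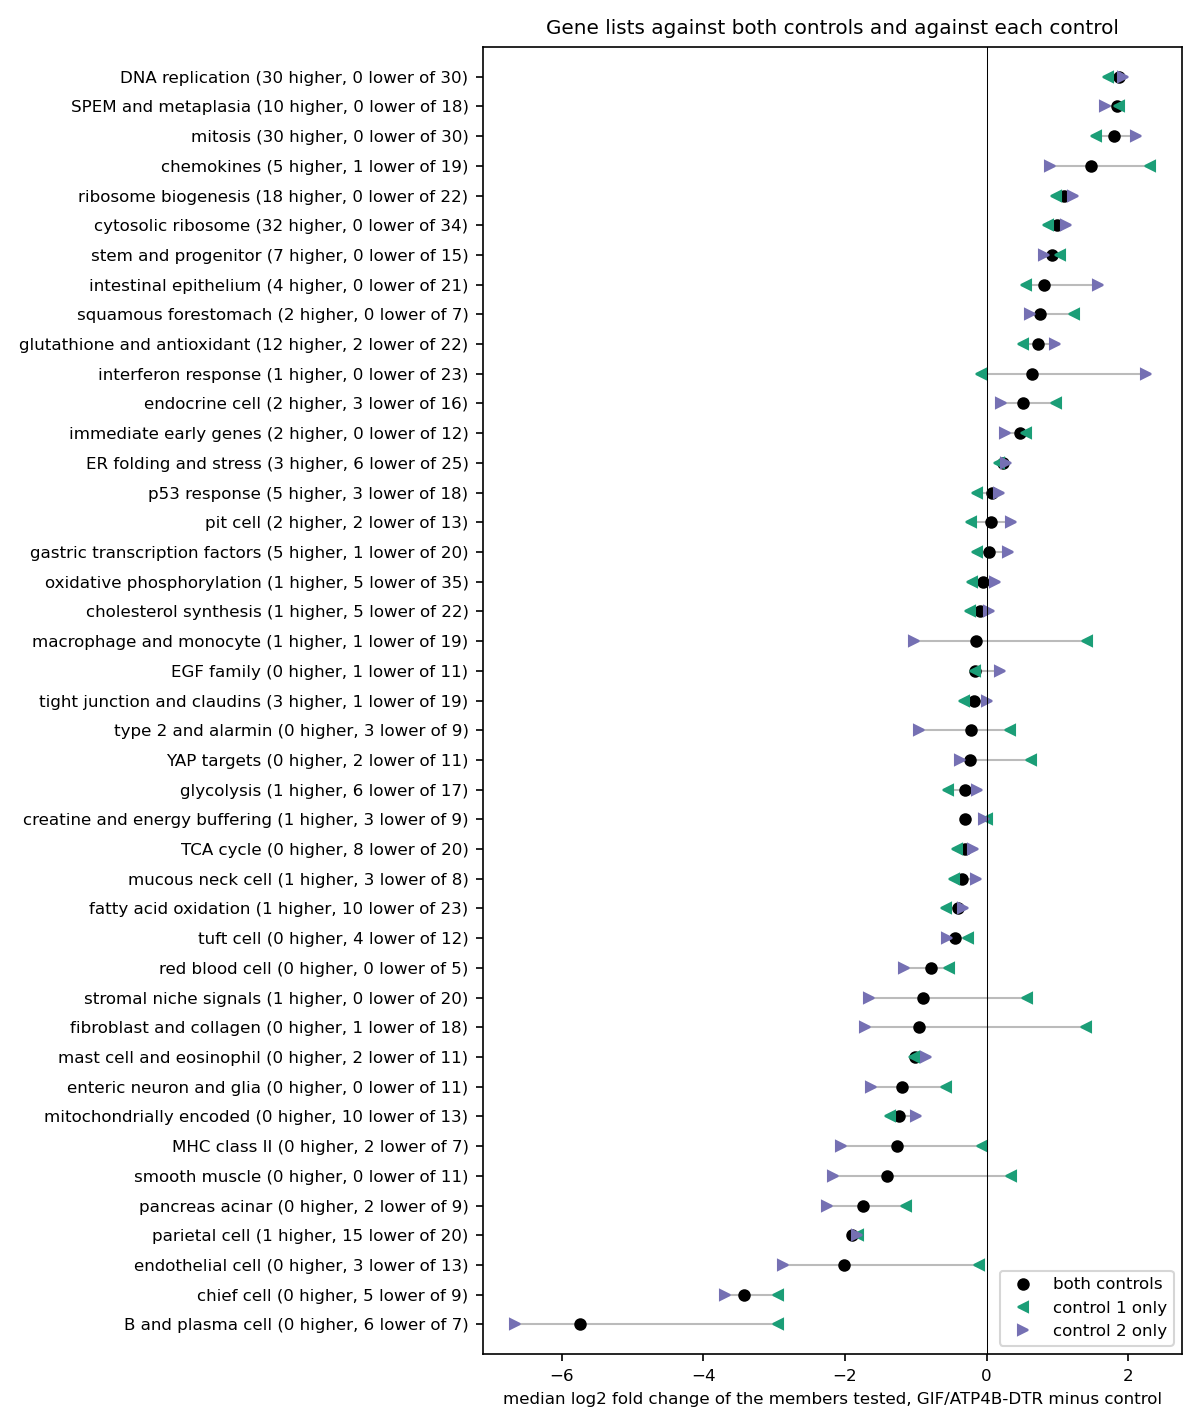
Median log2 fold change of the tested members of each gene list, combined line minus control, against both controls (circles), control 1 alone and control 2 alone (triangles), with the number of members called higher and lower against both controls. The mitosis, SPEM and parietal medians keep their sign against either control, while the fibroblast, macrophage, smooth muscle and interferon lists change sign.

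**Figure D4:**
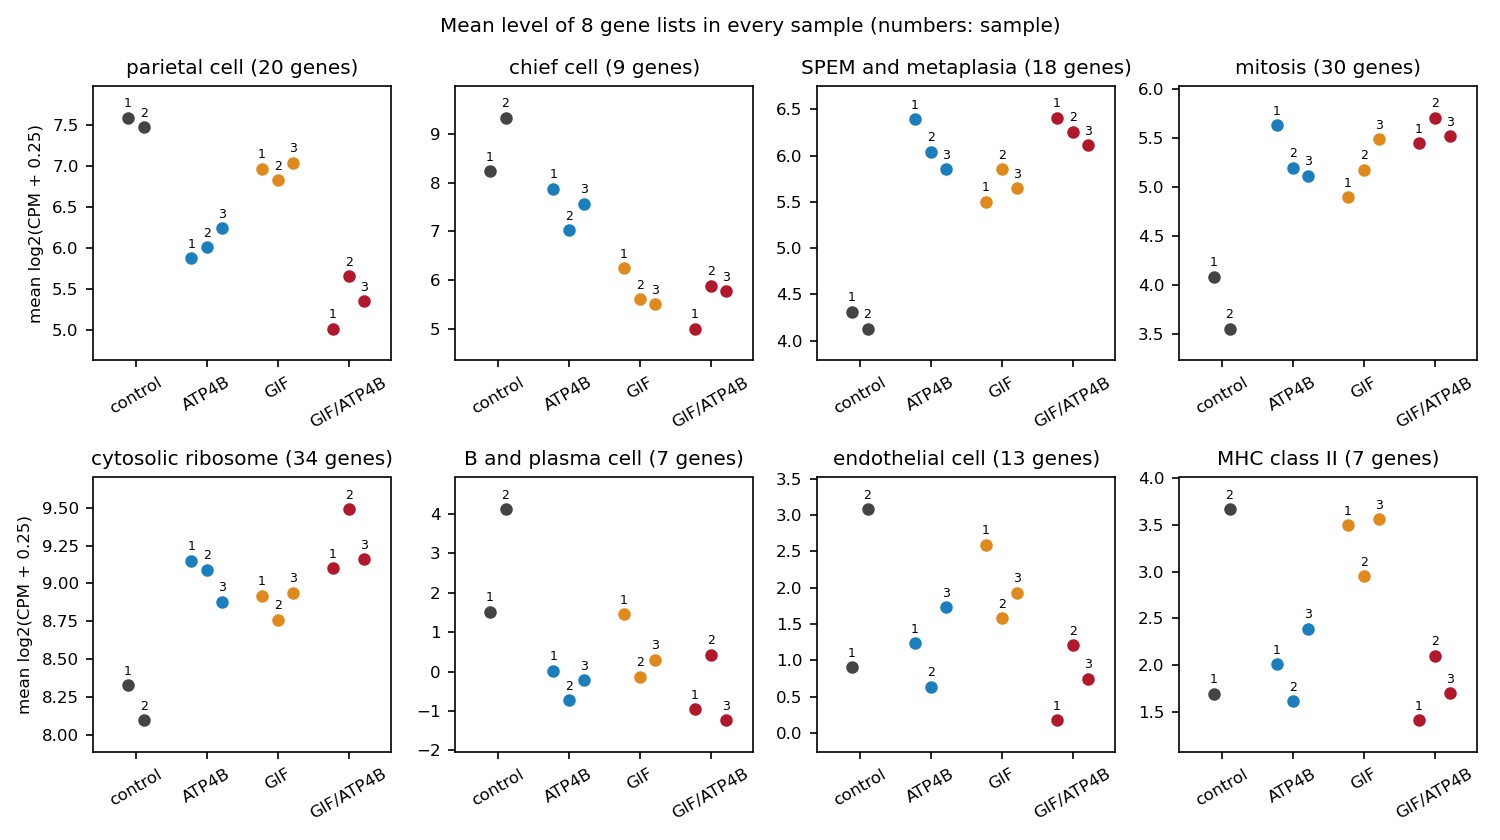
Mean of log2(CPM + 0.25) over the members of 8 gene lists in every sample, with samples numbered within each genotype. The parietal list is lowest in the 3 combined samples (5.02, 5.66 and 5.35), and the B and plasma cell, endothelial and MHC class II lists differ between the controls.

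A few members of the immune lists kept their call without either control, in lists that were mostly not called. Kit, the receptor of mast cells, which is also carried by interstitial cells, stood at 82.1 and 89.1 CPM in the controls, at 14.9, 9 and 12 in ATP4B-DTR, at 33.5, 22.4 and 26.5 in GIF-DTR and at 8.23, 6.58 and 5.49 in the combined line. Its combined samples were below every other sample (-3.66 ± 0.24, adjusted p = 8.72e-06, edgeR), while 2 of the 11 mast cell and eosinophil genes tested were called lower, or 1 against either control alone. Of 19 macrophage and monocyte genes 1 was called higher and 1 lower, against 5 and 0 with control 1 alone and 1 and 4 with control 2 alone. Of 19 chemokine genes 5 were higher and 1 lower, with 2 higher against either control alone. Cd14, the coreceptor for lipopolysaccharide, rose from 2.42 and 3.66 CPM to 13.1, 12.7 and 9.76 (1.97 ± 0.35). Cxcl16, a membrane-bound chemokine, rose from 36.6 and 28.4 CPM to 96.8, 125 and 154 (1.95 ± 0.24). Cxcl10 stood at 0.494 and 1.16 CPM in the controls, 10.6 to 33.2 in the single lines and 8.31, 53.4 and 30 in the combined line, overlapping them, and it was the 1 of 23 interferon response genes called, where 10 were called against control 2 alone. The alarmin Il33 stood at 324 and 172 CPM in controls 1 and 2 and 61, 107 and 93.7 in the combined line (-1.51 ± 0.49), a call that was lost without control 1 and without each combined sample (adjusted p = 0.231, 0.111, 0.0683 and 0.0807, edgeR).

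No gene passed the test for lying beyond both single lines. In that test the larger of the 2 p-values, against ATP4B-DTR and against GIF-DTR, is adjusted over all 14889 genes, and 0 genes passed (0.0%). The smallest adjusted p was 0.0538 (edgeR). At an unadjusted p under 0.05 there were 796, of which 517 were lower in the combined line and the rest higher, and DESeq2's Wald test called 94 (11 higher and 83 lower). Against ATP4B-DTR alone 0 genes were called (0.0%), with 1554 at an unadjusted p under 0.05 and 294 by DESeq2. As a description, 364 genes (2.44% of those tested) were called higher against control with all 3 combined samples above every other sample, and 477 (3.2%) were called lower with all 3 below. Without control 2 these were 206 and 380, and without combined sample 1 they were 958 and 769. Of these 841 genes 258 had fractional counts in at least 6 samples, against 4346 of the 14889 tested.

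The gene with the smallest p was Sec14l4, a lipid transfer protein (chr11:4031462-4048024). It stood at 84.7 and 75.2 CPM in the controls, at 9.59, 11.6 and 16.1 in ATP4B-DTR, at 32.1, 32.8 and 35.4 in GIF-DTR and at 3.59, 4.66 and 2.85 in the combined line. The 4 genotypes did not overlap, and the combined line was lower than ATP4B-DTR by -1.75 ± 0.21 and than GIF-DTR by -3.18 ± 0.22 in log2. Prlr, the prolactin receptor, stood at 17.5 and 17 CPM in the controls, 1.16 to 3.85 in ATP4B-DTR, 11.6 to 12.2 in GIF-DTR and 0.565, 0.641 and 0.356 in the combined line (adjusted p = 0.144 beyond both lines, edgeR). Ybx2, an RNA-binding protein of germ cells, stood at 16.7 and 15.1 CPM in the controls, 3.6 to 6.06 in ATP4B-DTR, 10.2 to 11.7 in GIF-DTR and 0.807, 1.84 and 1.35 in the combined line (adjusted p = 0.117). These genes shared an order, with GIF-DTR nearer to control and ATP4B-DTR nearer to the combined line. B4galnt2, described above, had the largest difference from its nearer line (-2.44 ± 0.42 against ATP4B-DTR) among the 12 lower genes that the naming rule gave.

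For Cckar and Pdia2 both single lines lay at about the same distance from the combined line. Cckar, the cholecystokinin receptor of chief cells and neurons, stood at 46 and 95.5 CPM in the controls, 21.6 to 46.1 in the single lines and 14.5, 11.3 and 3.78 in the combined line, with differences of -1.83 and -1.85 from ATP4B-DTR and GIF-DTR. Pdia2 differed by -2.30 and -2.31. St3gal1, a sialyltransferase that differed by -3.10 and -1.74, stood at 26.2 and 27.5 CPM in the controls, 5.63 to 53.3 in the single lines and 3.03, 3.51 and 2.56 in the combined line. Adssl1, an enzyme of AMP synthesis, overlapped control in GIF-DTR, at 18.9 and 18.8 CPM in the controls, 9.03 to 16 in ATP4B-DTR, 17.9 to 21.5 in GIF-DTR and 2.7, 6.8 and 2.78 in the combined line. The amino acid transporter Slc38a3 was at 1.05, 2.01 and 1.03 CPM in the combined line against 3.82 to 10.8 in the single lines. Myo16, an unconventional myosin, stood at 4.24, 1.5 and 2.1 CPM against 6.41 to 13.9 in the single lines. Zbtb16 differed by -1.62 and -1.68 with all samples of the single lines at or under 1.18 CPM, and Igf1 was at 1.98, 5.73 and 3.74 CPM, with a call against control that was lost without control 2 and without combined samples 1 and 3 (adjusted p = 0.371, 0.0998 and 0.0909, edgeR).

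Above both single lines, Kcne3, Cldn2 and Cftr came with 9 other genes by the naming rule. Apoc2, an apolipoprotein that activates lipoprotein lipase, stood at 0.988 and 0.444 CPM in the controls, 1.56 to 5.32 in the single lines and 8.15, 14.6 and 7.41 in the combined line (3.78 ± 0.60 against control). Il1rn, the interleukin-1 receptor antagonist, stood at 0.404 and 1.5 CPM in the controls, 2.49 to 6.86 in the single lines and 10, 12.1 and 18.5 in the combined line (3.86 ± 0.56). Mogat2, an enzyme of fat absorption, stood at 2.16 and 0.942 CPM in the controls, 3.41 to 6.66 in the single lines and 11.7, 12.1 and 12.7 in the combined line (2.96 ± 0.35). None of the 3 overlapped any other group. Pex5l, a peroxisomal receptor relative, rose by 3.42 ± 0.55 against control, to 11.8, 7.44 and 13.2 CPM. The calls of Ly6d (adjusted p = 0.199), Ly96 (0.211), Ankrd22 (0.101) and St8sia6 (0.0994) against control were lost without control 2 (edgeR). Those of Ly6d and Ly96 were also lost without combined sample 2 (adjusted p = 0.0548 and 0.0725, edgeR), and that of Ly6d without combined sample 1 (adjusted p = 0.102). With the length trend removed neither was called, at 1.8 for Ly6d (adjusted p = 0.0924) and 0.28, from 0.79, for Ly96 (adjusted p = 0.303). Rpl3 stood at 804, 963 and 837 CPM in the combined line against 167 to 660.2 in the single lines, but summed with its pseudogene Rpl3-ps1 the combined samples were at 805, 963 and 837 and ATP4B-DTR sample 1 was at 841, so that the groups overlapped. Its call against control was lost without control 1, control 2 or combined sample 2 (adjusted p = 0.0654, 0.122 and 0.0548, edgeR).

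**Figure D5:**
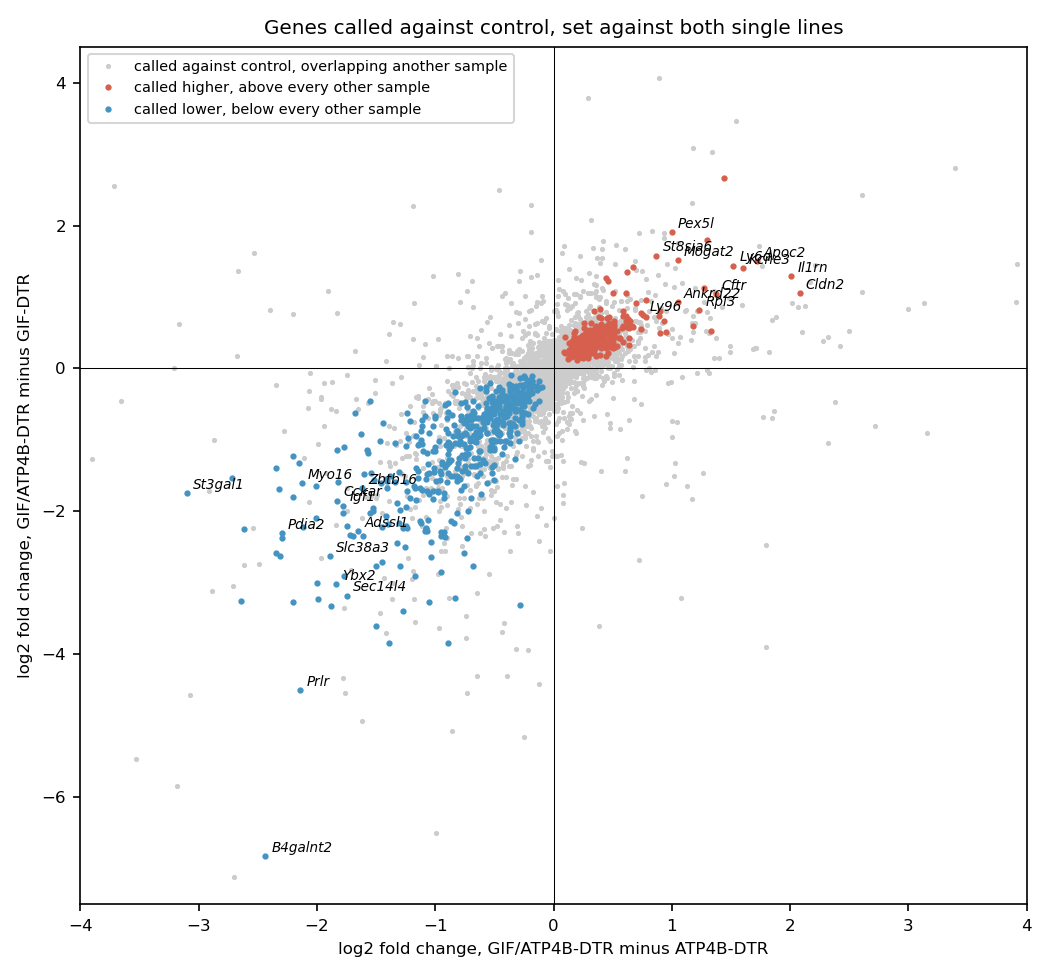
Genes called against control, by the log2 difference of the combined line from ATP4B-DTR (x axis) and from GIF-DTR (y axis), with genes whose 3 combined samples lie beyond every other sample in colour and those chosen by the naming rule labelled. The axes leave out 10 genes; B4galnt2 and Prlr lie lowest among the labelled genes, and Cldn2 and Il1rn lie farthest to the right.

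By list, members with all 3 combined samples below every other sample were counted among those called lower against control. Of 20 parietal members 15 were called lower, beside 15.4% of all genes tested. Of the 20, 6 were below every other sample, beside 3.2% of all genes tested. They were Atp4a, Atp4b, Clic6, Esrrg, Slc4a2 and Kcne2, the last with the limits given above. Those of energy metabolism included Ckb, Ak1 and Ak4, Idh3g, Echs1 and Ppara, Atp5b and Ndufv1, and Eno1 and Pfkm, all below. The call of Atp5b against control was lost without control 1 (-0.32, adjusted p = 0.216, edgeR) and without each combined sample (adjusted p = 0.0939, 0.0775 and 0.0855), and that of Ndufv1 without control 1 (adjusted p = 0.0658). The chief, mucous neck, mast cell, tuft cell and B and plasma cell lists gave 1 each below, Pdia2, Muc6, Kit, Ptgs1 and Ighm. The call of Ptgs1 against control was lost without control 2 (-0.16, adjusted p = 0.837, edgeR) and without each combined sample (adjusted p = 0.0799, 0.0859 and 0.0916). Above every other sample were Cftr and Cldn2 of the SPEM list, Bax and Gdf15 of the p53 list, Ttk of the mitosis list and 3 of 34 ribosomal proteins. None of these passed the test against both single lines.

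Against GIF-DTR alone 50 genes were called higher (0.336%) and 326 lower (2.19%). All 3 combined samples expressed Y-linked genes and no GIF-DTR sample did, so the genotype and that difference cannot be told apart. Among list members called, 8 parietal genes were lower in the combined line, with Slc26a7 at -6.50 ± 0.59, Hamp2 at -5.16 ± 0.37, Esrrb at -3.69 ± 0.43 and Atp4b at -3.27 ± 0.37. Kit was lower by -2.02 ± 0.22 and Cat by -1.08 ± 0.16. The antioxidant genes Gclc (1.11 ± 0.19), Gclm (1.02 ± 0.16), Srxn1 (1.04 ± 0.19), Hmox1 (1.24 ± 0.27) and Slc7a11 (2.02 ± 0.35) were higher. With an index of Y-linked expression as a covariate, 15 genes were called in all, and of these list members Hamp2 (adjusted p = 0.0345) and Kit (0.0345) were still called (edgeR). With the covariate the log2 differences were -3.67 for Esrrb, -2.74 for Atp4b, 1.11 for Srxn1, 1.16 for Hmox1 and 1.82 for Slc7a11. Other list members had smaller ones, among them Slc26a7 (-4.94), Cat (-0.59), Ly6c2 (-2.68 to -0.86), Pfkfb3 (-0.85 to -0.29) and Hrh2 (-1.49 to -0.94). Within a genotype the index differed widely only in ATP4B-DTR, at 5.44 in sample 1 and -1.11 and -1.34 in samples 2 and 3. The covariate thus rests largely on those samples, and the genotype and Y-linked expression still cannot be told apart.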

How the data were processed

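Bulk mRNA libraries of gastric corpus mucosa (stranded, poly(A)-selected, per the labels' protocols) were analysed from one deposited table of expected counts per gene, in which 30.7% of the nonzero values were not whole numbers. The genome build was mm10, per the submitters' processing notes. The aligner, the counter and their settings are not given in the sources used here. Identifiers were paired with symbols by gene ID from a reference table, for 34582 of 34866 (99.2%), and coordinates and transcript lengths were taken from GENCODE M21, which held 93.6% of the identifiers with their version.

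The expected counts that the authors deposited were rounded and fitted with edgeR 4.0.16 in R 4.3.3 (TMM scaling, filterByExpr, robust quasi-likelihood, a coefficient for each genotype, all 11 samples), where a plain count table had been assumed. P-values were adjusted by Benjamini-Hochberg over all 14889 genes tested, with a threshold of 0.05. The common biological coefficient of variation was 26.6%. A gene lay beyond both single lines by test when the larger of its p-values against each, with the same sign, passed. DESeq2 1.42.0 was an alternative, with others for scaling, filtering, transcript length, Y-linked expression and samples left out. Intervals of ratios cover counting error only.

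The members and the 46 gene lists (709 of 780 genes tested) were chosen with earlier results of these data known. Named genes were the 3 markers, the 12 highest and 12 lowest called changes against control (at least 8 CPM in the higher group, no overlap, no gene models or pseudogenes), the 12 farthest beyond both lines in each direction, and up to 4 called members a list and direction with the members that define it. Ttk, Idh3g, Ighm and the pseudogenes and features that share reads were named after their values were seen. Some list members are not reported here.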

Additional observations from a re-analysis of the deposited data

How the results depend on the processing

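Genes called between the combined line and control numbered 4672 to 5728 under the alternatives that used all 11 samples, 3991 in a fit of the compared groups only, and 2874 (without control 2) to 4631 with a sample left out. Leaving out a control leaves 1, which is then assumed to vary like the other groups. Of the 5005 calls, 2754 (55.0%) were called again without control 2, where 8 calls changed sign, and 3931 (78.5%) with the length trend removed, where 11 changed sign. Against ATP4B-DTR, where 0 genes were called, DESeq2's Wald test called 294, no filter on low counts 57, a fit of the compared groups only 1 and the Y-linked covariate 1, with 0 to 43 when a sample was left out. Against GIF-DTR (376 called) DESeq2's Wald test called 1005, the Y-linked covariate 15, and fits without a sample 160 to 320. Beyond both single lines (0 called) these were 94 by DESeq2's Wald test, 12 with no filter, 1 with the Y-linked covariate and 0 to 23 without a sample. Genes above every other sample (364) numbered 206 to 958 and those below (477) 380 to 769 without a sample. The cause was not tested.

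Log2 fold changes against control without control 2 and without control 1 had opposite signs for Adgre1 (1.42 and -1.64), Cdh5 (0.75 and -3.02), Csf1r (1.13 and -2.34), Cxcl12 (0.23 and -3.62), Dcn (0.42 and -1.84), Ghrl (0.46 and -0.42), Gkn1 (-0.61 and 0.03), Gkn2 (-0.22 and 0.41), Tff1 (-0.17 and 0.51) and Tff2 (-0.10 and 0.56). Ghrl was at 0.03 without combined sample 2. With the length trend removed Agr2 was at -0.07, Gkn2 at -0.41, Tff1 at -0.35 and Tff2 at -0.33. Of 192 named genes called, 57 lost the call without control 2 and 1 more, Cxcl12, lost it with a change of sign, and calls were lost by 36 without control 1 and 25 to 27 without a combined sample. The counts beyond every other sample under these settings and the values for members with whole counts were chosen after seeing the data. No paired analysis was possible because the sample titles share no replicate number between genotypes and no label ties samples of different genotypes to each other.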

Other observations

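Of 20 gastric transcription factors 5 were called higher and 1 lower, with a median of 0.03, where 18.2% of all genes tested were called higher. Against control 1 alone 1 was higher and 2 were lower, and against control 2 alone 2 were higher and 0 lower. Ehf, an epithelial ETS factor, stood at 53.1 and 53 CPM in the controls, 66.6 to 108 in the single lines and 117, 92.6 and 90.5 in the combined line (0.91 ± 0.19, SE). Sox2, a foregut factor, went from 5.03 and 6.26 CPM to 19.3, 9.66 and 10.5, a call that was lost without either control. Pdx1, a factor of the antrum and duodenum, stood at 0.314 and 0.0554 CPM in controls 1 and 2 and 7.18, 1.75 and 2.99 in the combined line, within the 0.922 to 8.1 of the single lines, and its call was lost without either control or combined sample 1.

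Genes of protein folding in the endoplasmic reticulum were divided, with 3 of 25 higher and 6 lower. Herpud1, a component of the degradation machinery, stood at 344 and 386 CPM in the controls, 94.3 to 159.6 in the single lines and 119, 106 and 119.7 in the combined line (-1.67 ± 0.19). Edem1, which targets misfolded glycoproteins, fell by 0.98 ± 0.15, while the translocon subunit Sec61b (1.00 ± 0.13) and the stress factor Atf4 (0.84 ± 0.17) rose. Among 22 cholesterol synthesis genes 5 were lower and 1 higher, but 2 were lower against control 1 alone and 1 against control 2 alone. Of 12 tuft cell genes 4 were lower and 0 higher, or 2 lower against control 1 alone: Dclk1, a kinase that marks these chemosensory cells, went from 23.2 and 26.1 CPM to 12.9, 11.5 and 13.3 (-0.97 ± 0.18).

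Vcp and its near copy Vcp-rs split reads unevenly within the combined line. Vcp-rs stood at 69.2 and 65.9 CPM in combined samples 1 and 2 and at 0.249 in combined sample 3, and it was at or under 0.186 in the other 8 samples. The sum with Vcp was 332 to 410.5 CPM over all 11 samples.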
